A study of Mus musculus with 8 samples.

Results

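The 14-3-3 proteins are a family of small adaptor proteins, and 7 genes encode them in mammals: YWHAB (14-3-3 beta), YWHAE (epsilon), YWHAG (gamma), YWHAH (eta), YWHAQ (theta), YWHAZ (zeta) and SFN (sigma). These 7 genes were chosen by symbol from the 33514 rows of the count table, and each had 1 row. Of the 7, 6 passed the filter on low counts and were tested. YWHAB did not pass it. No row of a YWHA pseudogene was among the rows, so the 6 rows whose symbol begins with YWHA are the members themselves. RNA was measured in 8 libraries of heart muscle cells (cardiomyocytes) isolated from adult C57BL/6 mice and kept in culture. The control group (siN, n = 4) was transfected with a negative-control siRNA, and the other group (siHoxa5, n = 4) with an siRNA against the homeobox transcription factor Hoxa5. Both groups then received phenylephrine at 100 µM for 24 h, starting 24 h after transfection. Phenylephrine activates alpha1-adrenergic receptors and makes cardiomyocytes grow. The comparison asks whether 14-3-3 transcripts differ between cells given the Hoxa5 siRNA and cells given the control siRNA, all under phenylephrine, and no group without phenylephrine was analysed here.

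The 14-3-3 proteins form cup-shaped dimers whose grooves hold short stretches of other proteins once a serine or threonine there has been phosphorylated. By gripping such partners they keep transcriptional regulators and histone deacetylases in the cytoplasm, hold signalling kinases in their resting state, and control how many channels reach the cell surface. Kinases such as AKT, PKA, CaMKII, PKD and AMPK write the sites that 14-3-3 proteins read, and the phosphatases PP1, PP2A and calcineurin erase them. In heart muscle the best-known case is the export of class IIa histone deacetylases from the nucleus during hypertrophic signalling. Members pair with themselves and with each other, and most partners can be bound by several of them.

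Counting reads for each member separately needs coding sequences that differ enough to assign a read to 1 gene. The coding sequences of the mouse genes (GENCODE M21 annotation, GRCm38 build) were 738 to 768 bases long. The closest pair was YWHAG and YWHAH, with 78.8% identical bases over the aligned coding sequence, followed by YWHAB and YWHAZ with 75.1% and YWHAQ and YWHAZ with 74.1%. The most distant pair was YWHAE and SFN with 60.2%. The longest run shared by any pair was 30 bases, between YWHAG and YWHAH, and no stretch of 50 or of 100 bases was shared by any pair. All 7 genes had the same base in 298 of 726 alignment columns without a gap.

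The 60 coding bases in which the family is most alike are shown because they let the members be compared base by base where they have been kept closest. Capitals mark bases that differ from the most common base of that column. Where bases were equally common in a column, the first in alphabetical order was taken, so a capital can be as common as it. All 7 genes were identical in 35 of the 60 columns. Each stretch lies within 1 coding exon, is written 5′ to 3′ on the coding strand, and has its GRCm38 position and strand beside the name.
YWHAB (chr2:164015295-164015354, plus): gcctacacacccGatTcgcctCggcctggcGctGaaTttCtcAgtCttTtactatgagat
YWHAE (chr11:75756937-75756996, plus): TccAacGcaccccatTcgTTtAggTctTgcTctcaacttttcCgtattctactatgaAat
YWHAG (chr5:135911182-135911241, minus): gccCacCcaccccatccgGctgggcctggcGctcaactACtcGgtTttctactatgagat
YWHAH (chr5:33026952-33027011, plus): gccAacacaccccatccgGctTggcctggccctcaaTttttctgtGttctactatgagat
YWHAQ (chr12:21396322-21396381, minus): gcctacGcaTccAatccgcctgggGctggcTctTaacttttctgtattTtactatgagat
YWHAZ (chr15:36775456-36775515, minus): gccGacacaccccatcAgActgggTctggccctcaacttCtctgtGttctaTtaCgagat
SFN (chr4:133601222-133601281, minus): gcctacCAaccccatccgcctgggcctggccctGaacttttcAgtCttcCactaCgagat

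Among stretches without an alignment gap in any member, the 60 coding bases least alike are shown in the same way. They show how far the genes have drifted apart where all 7 align. Only 11 of the 60 columns were identical in all 7. In YWHAB, YWHAQ and YWHAZ this stretch is joined across an intron, so the positions span more than 60 bases of the genome.
YWHAB (chr2:164014110-164015270, plus): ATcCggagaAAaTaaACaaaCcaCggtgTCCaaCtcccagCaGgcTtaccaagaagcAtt
YWHAE (chr11:75756853-75756912, plus): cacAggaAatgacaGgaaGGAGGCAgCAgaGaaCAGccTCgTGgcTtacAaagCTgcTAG
YWHAG (chr5:135911266-135911325, minus): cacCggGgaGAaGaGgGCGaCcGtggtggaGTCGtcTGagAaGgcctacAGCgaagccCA
YWHAH (chr5:33026868-33026927, plus): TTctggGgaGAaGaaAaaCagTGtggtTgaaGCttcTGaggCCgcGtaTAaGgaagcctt
YWHAQ (chr12:21396406-21398260, minus): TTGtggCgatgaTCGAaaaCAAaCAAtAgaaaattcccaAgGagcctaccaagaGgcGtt
YWHAZ (chr15:36775540-36776265, minus): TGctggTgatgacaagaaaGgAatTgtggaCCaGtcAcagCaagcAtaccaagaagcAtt
SFN (chr4:133601306-133601365, minus): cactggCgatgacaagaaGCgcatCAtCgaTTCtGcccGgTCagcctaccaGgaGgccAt

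With ties settled in that way, between 5 and 12 bases per gene differed from the family's most common base in the first set. In the second set the range was 13 to 27. By this count YWHAE differed most in both sets. It is also the member farthest from all the others over the whole coding sequence, with a mean identity of 62.0%.

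The gene loci lie apart on 6 chromosomes, and only YWHAG and YWHAH share one. On GRCm38, Ywhae spans chr11:75732869-75765845 (plus strand, 6 coding exons), Ywhaz chr15:36770770-36796929 (minus, 5), Ywhah chr5:33018816-33027966 (plus, 2) and Ywhaq chr12:21390071-21417637 (minus, 5). Ywhag spans chr5:135908409-135934616 (minus, 2 coding exons), Ywhab chr2:163994960-164018588 (plus, 5) and Sfn chr4:133600556-133602168 (minus, 1). An annotated antisense gene, Gm4419, overlaps 248 of the 3061 exonic bases of Ywhaq, and reads from that stretch cannot be told apart by gene, since the library kit does not mark strand.

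Library totals were 635825 to 658192 counts in siN and 560189 to 619941 in siHoxa5. The targeted gene HOXA5 had 2, 0, 3 and 3 counts in siN libraries 1 to 4 and 1, 3, 4 and 1 in siHoxa5 libraries 1 to 4, a ratio of 1.24 with a 95% interval of 0.426 to 3.70 (exact, counting error only), so a knockdown was not detectable at this depth and the labels were not checked by it. On the first principal component, which held 25.8% of the variance, siHoxa5 libraries 2 and 4 (10.8 and 11.0) lay apart from siHoxa5 libraries 1 and 3 (2.74 and 4.69), and siN libraries lay between -7.77 and -6.30. On the second component siHoxa5 libraries 2 and 4 lay on opposite sides (8.30 and -13.4). Leaving them out keeps siHoxa5 libraries 1 and 3, the nearer to siN on the first, which can by itself shrink group differences. The log2 fold changes of the tested members are given with and without siHoxa5 libraries 2 and 4. So are the log2 fold changes or adjusted p-values of the called genes named, cell type markers apart. Of 10 cardiomyocyte markers, 8 had counts, and their summed CPM (a gene's counts scaled to the TMM-adjusted library total) was 53540 to 57080 in siN and 67330 to 72330 in siHoxa5. Most of that sum came from MYH6 and MYH7, and the markers did not all go the same way. ACTC1 had a log2 fold change of -0.03 (edgeR adjusted p = 0.837) and TNNT2 one of -0.44 (adjusted p = 0.0257). TNNI3 and PLN were listed at 0, as were the heart muscle genes MB, MYL2 and MYL3, so a low count in these files was not read as a low level. The summed fibroblast markers were at 10180 to 10850 CPM in siN and 10900 to 12850 in siHoxa5, nearly all of it from COL1A1 and COL1A2. COL1A1 had a log2 fold change of 0.21 (edgeR adjusted p = 0.000195) and COL1A2 one of 0.15 (adjusted p = 0.621). Over the 8 libraries POSTN had 21 counts, COL3A1 7, DCN 1, PDGFRA 1 and LUM 0. In bulk RNA, fewer cells of a type and less RNA per cell cannot be told apart.

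Together the 7 genes held between 0.828% and 0.895% of all counts in a library. Their summed level was 8999, 8582, 8802 and 8868 CPM in siN libraries 1 to 4 and 8711, 8483, 8638 and 8654 CPM in siHoxa5 libraries 1 to 4. The group means were 8813 ± 174 (SD, n = 4) and 8622 ± 97.4 (SD, n = 4), and the ranges overlapped. YWHAE, YWHAZ, YWHAH and YWHAQ carried nearly all of it.

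Per kilobase of each gene's longest coding transcript, the order of levels over the 8 libraries was YWHAE, YWHAH, YWHAZ, YWHAQ, YWHAG, SFN and YWHAB. YWHAE had a median of 1252 CPM per kilobase (range 1184 to 1315) and YWHAH one of 1097 (886 to 1169). YWHAZ had a median of 742 (697 to 776) and YWHAQ one of 672 (626 to 804), and those were the only neighbours in the order whose ranges overlapped. The remaining members had far lower values. YWHAG had a median of 68.4 CPM per kilobase, SFN one of 16.4 and YWHAB one of 1.14. Since heart muscle genes such as MYL2 and MYL3 were listed at 0, these low values were not read as low levels in the cells. Dividing by coding length in place of transcript length, chosen after seeing the data, put YWHAZ (3305 CPM per kilobase) above YWHAH (2612), so the order of those 2 genes depends on the length used. Between 53.7% and 78.9% of each transcript is noncoding.

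**Figure D1:**
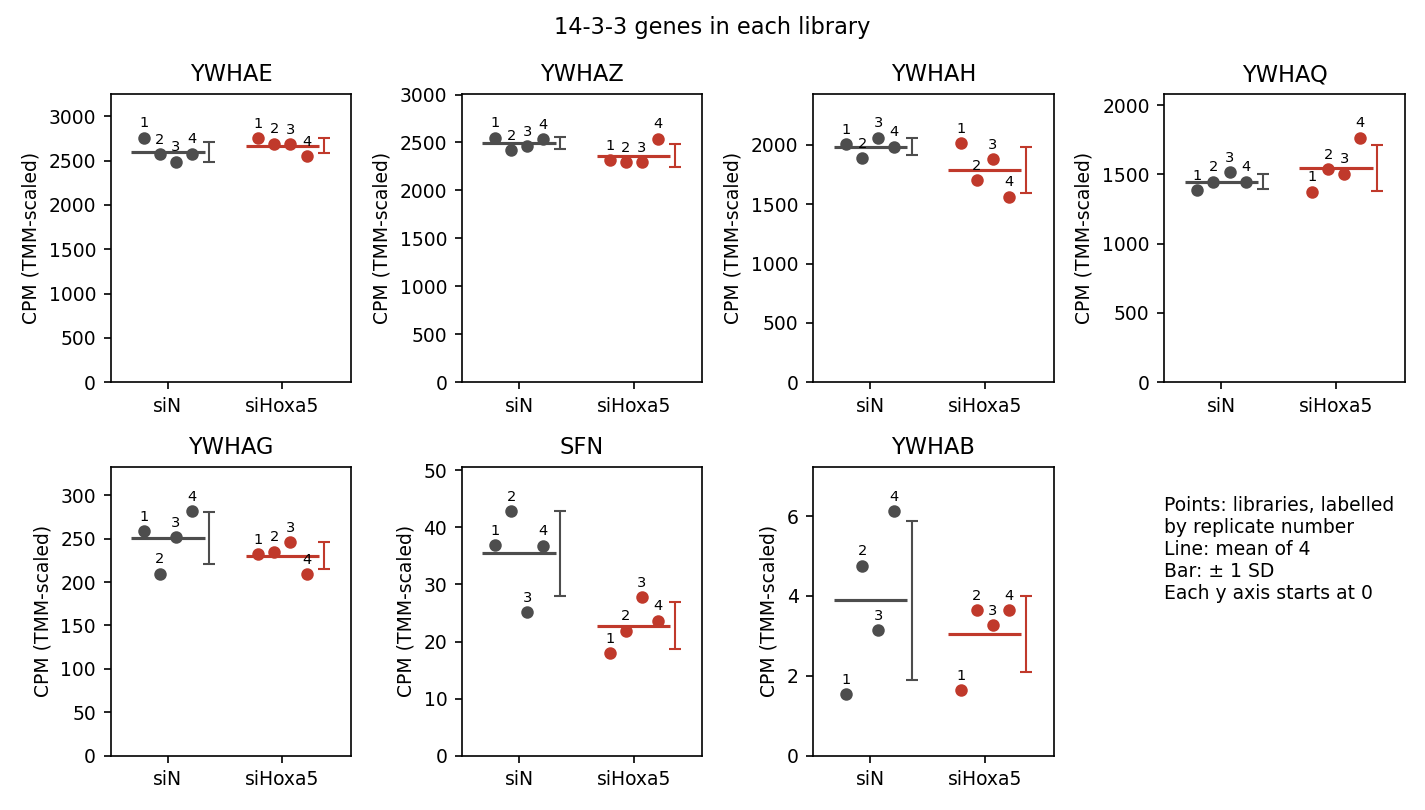
Level of each 14-3-3 gene in every library, in CPM on TMM-scaled library sizes (y axis, from 0 in each panel), for siN (grey) and siHoxa5 (red); points are libraries with their replicate number, lines are means of 4 and bars ± 1 SD. The 2 groups overlap for all 7 genes, and siHoxa5 libraries 2 and 4 are the lowest for YWHAH (1701 and 1562 CPM).

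None of the 6 tested members was called, meaning past the threshold of 0.05 on the adjusted p-value (edgeR's quasi-likelihood test, Benjamini-Hochberg adjustment over 3020 genes). DESeq2 and limma-voom called 0 of 6 as well. At an unadjusted p under 0.05 edgeR had 2 members, YWHAH and SFN, limma-voom 2 and DESeq2 1, all with lower values in siHoxa5. By edgeR's p-value YWHAH ranked 297 and SFN 475 among the 3020 tested genes. At least 475 tested genes were thus under that unadjusted cut. Over all tested genes, 215 of 3020 (7.12%) were called, 113 higher (3.74%) and 102 lower (3.38%). Non-overlapping ranges were found for 0 of 6 members and for 361 of 3020 genes (12.0%). The 6 members split into 4 with a lower and 2 with a higher value in siHoxa5, with a median log2 fold change of -0.10, against 50.6% lower and a median of -0.0037 over all tested genes.

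YWHAE, the epsilon member, prefers to pair with other members rather than with itself, and its loss in mice disturbs the growth of the ventricle wall. Its level was 2761, 2572, 2487 and 2577 CPM in siN libraries 1 to 4 and 2756, 2691, 2682 and 2550 CPM in siHoxa5 libraries 1 to 4. The siHoxa5 values lay inside the siN range. The means were 2599 ± 115 and 2670 ± 86.4 CPM (SD, n = 4 each). The fitted log2 fold change was 0.04 with a 95% interval of -0.06 to 0.14 (SE 0.05, edgeR adjusted p = 0.736). The interval corresponds to a fold of 0.959 to 1.10, and the SE was the smallest of the family. Without siHoxa5 libraries 2 and 4 the log2 fold change was 0.07 (adjusted p = 0.491).

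YWHAZ, the zeta member, binds signalling kinases and the cell-death protein BAD, among many others. It had 2552, 2419, 2459 and 2535 CPM in siN libraries and 2317, 2292, 2296 and 2539 CPM in siHoxa5 libraries. Libraries 1 to 3 of siHoxa5 lay below every siN library, while siHoxa5 library 4 lay inside the siN range. The means were 2491 ± 62.8 and 2361 ± 119 CPM (SD, n = 4 each). The fitted log2 fold change was -0.08 with a 95% interval of -0.18 to 0.02 (SE 0.05, edgeR adjusted p = 0.424). Without siHoxa5 library 4 the log2 fold change was -0.11 (adjusted p = 0.16), and without libraries 2 and 4 it was also -0.11 (adjusted p = 0.21), both short of the threshold.

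YWHAH, the eta member, is the isoform whose dominant-negative form has been expressed in mouse hearts to block 14-3-3 function. Its level was 2004, 1886, 2062 and 1985 CPM in siN libraries and 2012, 1701, 1878 and 1562 CPM in siHoxa5 libraries. Library 1 of siHoxa5 lay inside the siN range, the other siHoxa5 libraries lay below it, and libraries 2 and 4 were the lowest. The means were 1984 ± 73.3 and 1788 ± 197 CPM (SD, n = 4 each). The fitted log2 fold change was -0.15 with a 95% interval of -0.26 to -0.04 (SE 0.06, unadjusted p = 0.00867, edgeR adjusted p = 0.0882). This was the smallest p-value in the family. Without siHoxa5 libraries 2 and 4 the log2 fold change was -0.02 (adjusted p = 0.883), and correction for transcript length and GC content, library by library, gave -0.06 (adjusted p = 0.652). Without siHoxa5 library 1 it was -0.21 (adjusted p = 0.00531), which passed the threshold.

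YWHAQ, the theta member, also called tau, has been tied to survival of cardiomyocytes under stress in mice with reduced gene dose. It had 1386, 1448, 1514 and 1446 CPM in siN libraries and 1375, 1539, 1505 and 1766 CPM in siHoxa5 libraries. The highest value of all 8 was in siHoxa5 library 4 and the lowest in siHoxa5 library 1, on either side of the whole siN range. The means were 1448 ± 52.5 and 1546 ± 163 CPM (SD, n = 4 each). The fitted log2 fold change was 0.09 with a 95% interval of -0.02 to 0.21 (SE 0.06, edgeR adjusted p = 0.382). Without siHoxa5 libraries 2 and 4 it was -0.0029 (adjusted p = 0.996). Without siHoxa5 library 1 it was 0.15 (adjusted p = 0.104), and correction for length and GC content also gave 0.15 (adjusted p = 0.128).

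YWHAG, the gamma member, is best known from brain and skeletal muscle and is the closest relative of YWHAH by coding sequence. Its level was 258, 210, 252 and 282 CPM in siN libraries and 232, 235, 246 and 209 CPM in siHoxa5 libraries. The siN libraries spanned the wider range and held all but 1 of the siHoxa5 values. The means were 250 ± 30.1 and 231 ± 15.5 CPM (SD, n = 4 each). The fitted log2 fold change was -0.12 with a 95% interval of -0.33 to 0.09 (SE 0.11, edgeR adjusted p = 0.6). Without siHoxa5 libraries 2 and 4 it was -0.06 (adjusted p = 0.871). Between 115 and 184 counts per library stood behind it.

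SFN, the sigma member, pairs mainly with itself, is a target of p53 and is made chiefly by epithelial cells. It had 24, 27, 16 and 24 counts in siN libraries and 11, 12, 17 and 13 in siHoxa5 libraries, or 36.9, 42.9, 25.2 and 36.8 CPM against 18.0, 21.9, 27.7 and 23.6 CPM. The ranges overlapped through siN library 3 and siHoxa5 library 3. The means were 35.4 ± 7.40 and 22.8 ± 4.05 CPM (SD, n = 4 each). The fitted log2 fold change was -0.63 with a 95% interval of -1.20 to -0.07 (SE 0.29, unadjusted p = 0.0291, edgeR adjusted p = 0.185). Without siHoxa5 libraries 2 and 4 it was -0.62 (adjusted p = 0.383). The point estimate was the largest of the family and its standard error was the widest. Of 8 epithelial and keratinocyte markers 5 had a count, and their summed level was 11.1 to 26.8 CPM in siN and 18.2 to 29.4 CPM in siHoxa5, with KRT5, KRT18 and TP63 at 0. The part of such cells in the SFN values was not tested.

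YWHAB, the beta member, had 1, 3, 2 and 4 counts in siN libraries and 1, 2, 2 and 2 counts in siHoxa5 libraries. The sums were 10 and 7 counts, with a depth-scaled ratio of 0.773 (95% interval 0.250 to 2.25, exact, counting error only). A count of 0 allows up to 3 counts, or 4.60 to 5.47 CPM, and siN library 4 was the only one above 3 counts. No difference was detectable at this depth. YWHAB has 75.1% coding identity with YWHAZ, but their longest shared coding run is 26 bases. No 50-base stretch of its coding sequence occurs in another member. The sources used here do not say how reads matching more than 1 gene were counted, and the cause of the low YWHAB counts was not tested.

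**Figure D2:**
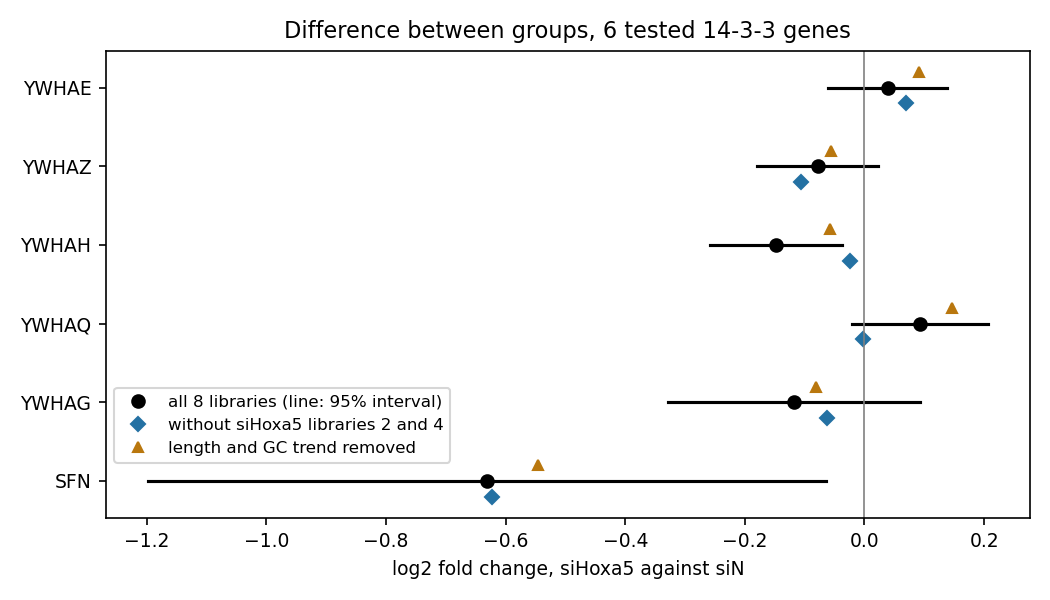
Log2 fold change of siHoxa5 against siN (x axis) for the 6 tested 14-3-3 genes, from all 8 libraries (black, with 95% intervals), without siHoxa5 libraries 2 and 4 (blue) and corrected for length and GC content (orange). YWHAH moves from -0.15 to -0.02 and YWHAQ from 0.09 to -0.0029 without libraries 2 and 4, while SFN is at -0.63 with the widest interval and at -0.62 without those libraries.

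By mean CPM among the 3020 tested genes, YWHAE ranked 50, YWHAZ 61, YWHAH 90, YWHAQ 116 and YWHAG 771. Among genes at or above the level of YWHAG, 120 of 771 (15.6%) were called, the median absolute log2 fold change was 0.10 and the median SE was 0.08. The absolute log2 fold changes of the 5 YWHA genes ran from 0.04 to 0.15 around that median.

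Within the family, YWHAE made up 30.7%, 30.0%, 28.3% and 29.1% of the family's counts in siN libraries and 31.6%, 31.7%, 31.0% and 29.5% in siHoxa5 libraries. YWHAZ made up 28.4%, 28.2%, 27.9% and 28.6% in siN and 26.6%, 27.0%, 26.6% and 29.3% in siHoxa5. These are shares of counts and are not corrected for gene length. The groups overlapped for both genes, and siHoxa5 library 4 was the highest for YWHAZ.

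YWHAH made up 22.3%, 22.0%, 23.4% and 22.4% in siN libraries and 23.1%, 20.1%, 21.7% and 18.1% in siHoxa5 libraries. YWHAQ made up 15.4%, 16.9%, 17.2% and 16.3% in siN and 15.8%, 18.1%, 17.4% and 20.4% in siHoxa5. In siHoxa5 library 4 the share of YWHAQ exceeded that of YWHAH, and in the other 7 libraries it did not. The mean share of YWHAH was 22.5% ± 0.632 in siN and 20.7% ± 2.18 in siHoxa5, and that of YWHAQ was 16.4% ± 0.789 and 17.9% ± 1.92 (SD, n = 4 each). Without siHoxa5 libraries 2 and 4 the siHoxa5 means were 22.4% for YWHAH and 16.6% for YWHAQ. YWHAG held between 2.42% and 3.18% of the family's counts, SFN between 0.206% and 0.499%, and YWHAB between 0.0171% and 0.0691%.

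**Figure D3:**
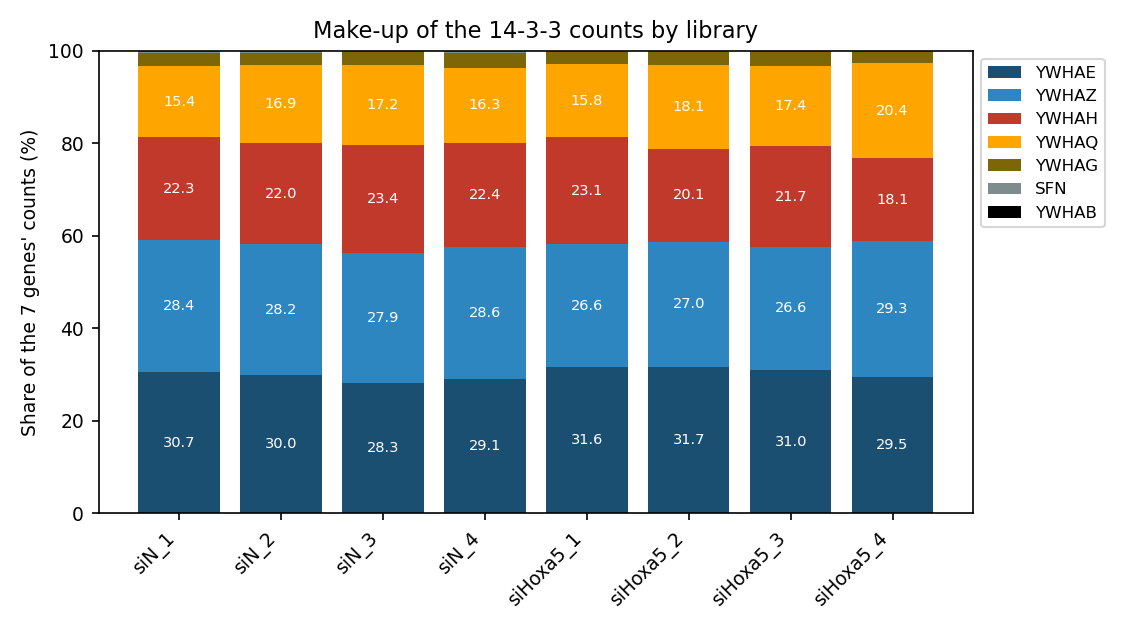
Make-up of the 14-3-3 counts in each library (x axis), as the percentage of the 7 genes' summed counts (y axis, from 0), with 1 colour per gene. Over the 8 bars the YWHAE share runs from 28.3% to 31.7% and the YWHAZ share from 26.6% to 29.3%. The YWHAH share is smallest (18.1%) and the YWHAQ share largest (20.4%) in siHoxa5 library 4.

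Across the 8 libraries the log2 CPM of YWHAH and YWHAQ ran in opposite directions, with Pearson's r = -0.848, and r = -0.823 once each group's mean was removed. YWHAG and YWHAH ran together with r = 0.622 (0.514 with group means removed). YWHAE and YWHAQ had r = -0.527 (-0.812 with group means removed). These are descriptions over 8 libraries that share depth and scaling, and siHoxa5 libraries 2 and 4 are the extreme points for YWHAH.

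The genes whose log2 CPM tracked each member most closely across the 8 libraries were taken as the 2 with the highest Pearson's r among all 3020. For YWHAH they were FN1 (r = 0.975), which encodes fibronectin, and TIMP3 (r = 0.97), an inhibitor of matrix metalloproteinases. FN1 fell from 3256 ± 71.8 to 2879 ± 336 CPM (edgeR adjusted p = 0.0257) and TIMP3 from 270 ± 22.7 to 207 ± 52.0 CPM (adjusted p = 0.0316), and in both of them, as in YWHAH, siHoxa5 libraries 2 and 4 were the lowest. Without those libraries the log2 fold change of FN1 was -0.05 (adjusted p = 0.621) and that of TIMP3 was -0.10 (adjusted p = 0.755), and neither was called. For YWHAQ they were SCUBE3 (r = 0.975) and FBXW2 (r = 0.933), for YWHAZ SNRPA1 (0.955) and RPL4 (0.909), and for YWHAE NEK7 (0.943) and PPIL4 (0.91). For YWHAG they were GIT1 (r = 0.938) and TRIO (0.911), and for SFN CNN3 (0.946) and HSPH1 (0.943). With group means removed, r ran from 0.846 (RPL4 with YWHAZ) to 0.974 (SCUBE3 with YWHAQ). Of these 12 genes, FN1, TIMP3 and RPL4 were called, each lower in siHoxa5, beside 7.12% of all tested genes. The 12 were picked by r over the same 8 libraries that hold the group difference, so their calls are not separate from that choice. RPL4 had 153 ± 21.5 CPM in siN and 114 ± 27.0 in siHoxa5 (log2 fold change -0.43, adjusted p = 0.0466). Without siHoxa5 libraries 2 and 4 its log2 fold change was -0.50 (adjusted p = 0.0536).

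The proteins that 14-3-3 dimers act on, and the enzymes that make and erase the sites they read, were followed in 6 lists of 119 genes. Of these, 96 had a count and 61 passed the filter. By edgeR 5 of the 61 (8.2%) were called, all higher in siHoxa5, beside 7.12% of all tested genes. In the fits of all 8 libraries by edgeR with TMM scaling, DESeq2 and limma-voom, 0 listed genes were called lower, though other settings called PPP1CB lower, and at an unadjusted p under 0.05 each of the 3 tools had 4 lower. The groups did not overlap for 10 of the 61 (16.4%), beside 12.0% of all tested genes. Cardiomyocyte markers also differed between the groups. Of 8 tested, 4 were called higher and 1 lower, with a median log2 fold change of 0.39, beside 7.12% called and a median of -0.0037 over all tested genes. The part of that marker difference in the calls of listed genes was not tested. HDAC9 (1.43), KCNH2 (0.94) and PRKAA2 (0.56) were also called without siHoxa5 libraries 2 and 4.

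Among transcriptional partners, 17 genes were listed and 8 tested, with 1 called and a median log2 fold change of 0.08. HDAC9, a class IIa histone deacetylase that 14-3-3 proteins hold in the cytoplasm, had 13.8, 7.94, 12.6 and 12.3 CPM in siN libraries and 35.9, 31.0, 27.7 and 41.8 CPM in siHoxa5 libraries. Every siHoxa5 library exceeded every siN library. The log2 fold change was 1.53 with an SE of 0.34 (adjusted p = 0.000604, edgeR), from 109 counts over the 8 libraries. HDAC5, a relative with 2082 counts over the 8 libraries, had 422 ± 37.1 and 427 ± 38.6 CPM (adjusted p = 0.935). HDAC7 had 19.5 ± 5.04 and 30.8 ± 10.3 CPM (adjusted p = 0.221) with overlapping groups, and its log2 fold change was 0.65 with all libraries and 0.38 without siHoxa5 libraries 2 and 4. The FOXO factors are kept out of the nucleus by 14-3-3 proteins after AKT has phosphorylated them, and neither of those tested was called by edgeR. FOXO4 had a log2 fold change of -0.30 (adjusted p = 0.514) and FOXO3 one of 0.13 (adjusted p = 0.82), which was -0.14 without siHoxa5 libraries 2 and 4. MITF, of the family of TFEB, had 0.27 (adjusted p = 0.407).

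Among membrane, junction and cytoskeleton partners, 17 were listed and 7 tested, with 2 called and a median log2 fold change of 0.07. KCNH2, the potassium channel of cardiac repolarization that binds 14-3-3 when phosphorylated by PKA, had 36.9, 36.5, 29.9 and 41.4 CPM in siN libraries and 66.9, 76.5, 71.7 and 56.4 CPM in siHoxa5 libraries. The groups did not overlap, and the log2 fold change was 0.90 with an SE of 0.22 (adjusted p = 0.00173, edgeR). SLC8A1, the sodium-calcium exchanger, had 288, 256, 320 and 308 CPM against 341, 430, 315 and 411 CPM. Its groups overlapped through siN library 3 and siHoxa5 library 3, and siHoxa5 libraries 2 and 4 were the highest. The log2 fold change of SLC8A1 was 0.35 (SE 0.10, adjusted p = 0.00972), and it was 0.17 (adjusted p = 0.481) without siHoxa5 libraries 2 and 4. PPP1R12A, the myosin phosphatase targeting subunit, had 1266 ± 28.3 and 1333 ± 46.3 CPM (adjusted p = 0.516).

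None of the partners in the other 2 lists was called by edgeR, DESeq2 or limma-voom, and at an unadjusted p under 0.05 each of these tools had 0 kinase and cell cycle partners and 2 in the insulin and mTOR list. Of 19 kinase and cell cycle partners 6 were tested, with a median log2 fold change of 0.11. BRAF, a kinase whose resting and active states both involve 14-3-3, had 88.4 ± 9.14 and 99.1 ± 17.0 CPM (adjusted p = 0.656), with a log2 fold change of 0.16 that was 0.00072 without siHoxa5 libraries 2 and 4. MARK3, a polarity kinase, had a log2 fold change of 0.53 (adjusted p = 0.258), which was 0.19 without those libraries. PRKCE had 0.22 (adjusted p = 0.78) and 0.48 without them. Of 18 partners in insulin signalling, mTOR, survival and mRNA decay 5 were tested, with a median of -0.09. ZFP36L1, an mRNA decay factor, had 1225 ± 36.8 and 1111 ± 51.1 CPM with no overlap and a log2 fold change of -0.14 (adjusted p = 0.14). TBC1D1, a regulator of glucose transporter traffic, had 22.2 ± 6.46 and 12.0 ± 1.82 CPM with no overlap and a log2 fold change of -0.87 (SE 0.37, adjusted p = 0.155), from 85 counts over the 8 libraries. BECN1 (-0.09, adjusted p = 0.626) and NEDD4L (0.46, adjusted p = 0.411) overlapped between groups.

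Among the kinases that write 14-3-3 sites, 32 were listed and 20 tested, with 2 called and a median log2 fold change of 0.08. PRKAA2, the AMPK catalytic subunit that predominates in heart muscle, had 149, 165, 143 and 129 CPM in siN libraries and 199, 202, 230 and 253 CPM in siHoxa5 libraries. All siHoxa5 libraries lay above all siN libraries, and the log2 fold change was 0.59 with an SE of 0.12 (adjusted p = 0.000149, edgeR). RPS6KB1, the S6 kinase downstream of mTOR, had 618, 603, 570 and 574 CPM against 714, 714, 651 and 695 CPM. The groups did not overlap, and the log2 fold change was 0.23 (SE 0.07, adjusted p = 0.0303). That call was lost under 9 of 16 alternatives, among them DESeq2 (adjusted p = 0.0607) and leaving out siHoxa5 libraries 2 and 4 (adjusted p = 0.101). PRKAA1, the other AMPK catalytic subunit, had 23.3 ± 11.3 and 35.5 ± 6.02 CPM (log2 fold change 0.59, adjusted p = 0.229). RPS6KA3, a kinase activated by ERK, had 885 ± 15.0 and 974 ± 55.0 CPM without overlap (log2 fold change 0.14, adjusted p = 0.2, and 0.07 without siHoxa5 libraries 2 and 4). The 18 kinases not called, which include the AKT, PKA, PKD and CaMKII genes that passed the filter, had log2 fold changes from -0.60 to 0.59.

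Among the phosphatases that erase the sites, 16 were listed and 15 tested. None was called by edgeR, DESeq2 or limma-voom, each of which had 1 at an unadjusted p under 0.05, and log2 fold changes ran from -0.21 to 0.10 with a median of -0.03. PPP1CB, a PP1 catalytic subunit, had 974, 972, 1056 and 983 CPM in siN libraries and 862, 862, 892 and 895 CPM in siHoxa5 libraries. The groups did not overlap, and the log2 fold change of -0.18 (SE 0.06, adjusted p = 0.0544) missed the threshold. It passed with upper-quartile scaling (adjusted p = 0.0487), with correction for length and GC content (-0.24, adjusted p = 0.0073) and without siHoxa5 library 4 (adjusted p = 0.0464). PPP3CB, a calcineurin catalytic subunit, had 967 ± 87.3 and 1033 ± 39.7 CPM (adjusted p = 0.429), PPP2R5C a log2 fold change of -0.21 (adjusted p = 0.492) and PPP2R2A one of -0.06 (adjusted p = 0.69).

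**Figure D4:**
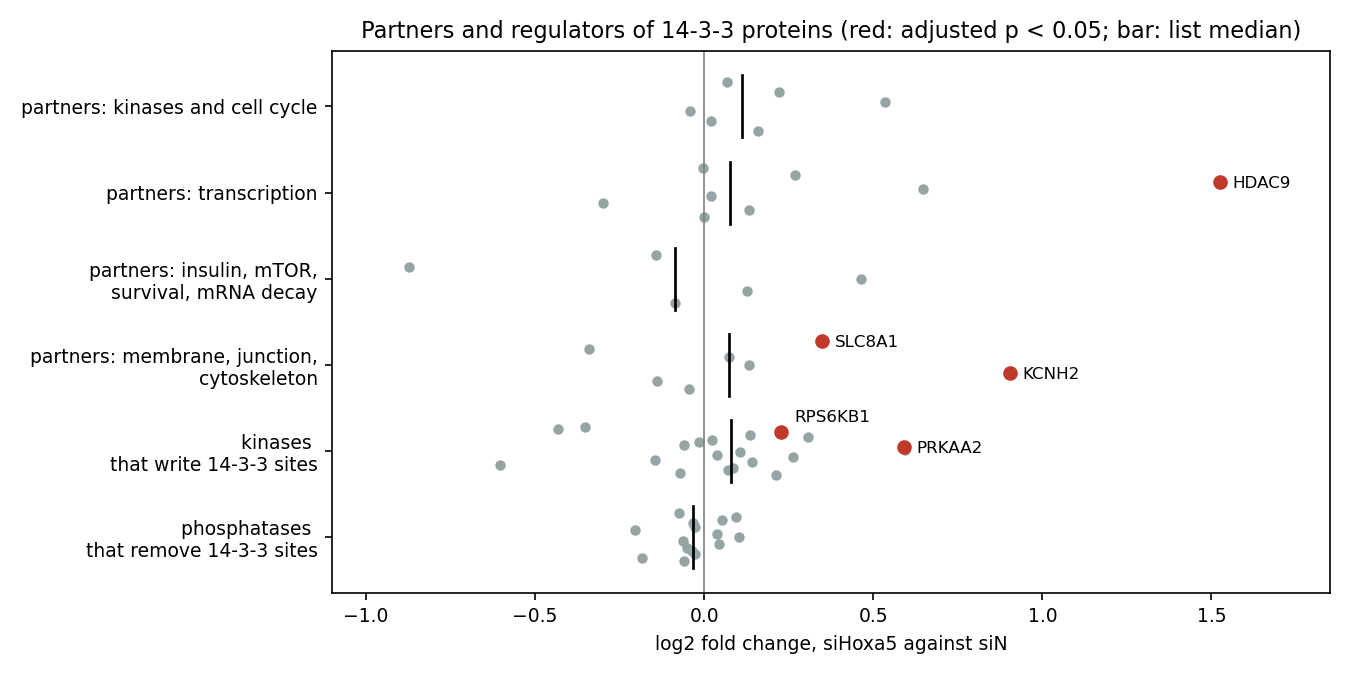
Log2 fold change of siHoxa5 against siN (x axis) for the 61 tested genes of 6 lists of 14-3-3 partners and regulators (rows); points are genes, red points passed an adjusted p of 0.05 by edgeR, and bars are list medians. The 5 red points (HDAC9 1.53, KCNH2 0.90, PRKAA2 0.59, SLC8A1 0.35 and RPS6KB1 0.23) lie to the right of 0, and the 15 phosphatase genes lie within -0.21 to 0.10.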

How the data were processed

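The values deposited by the authors are estimated counts, 1 per gene symbol and library, without normalization, from 8 poly-A libraries. They are whole numbers except in 4 rows that hold values ending in 0.5, and were rounded here before testing. The submitters' processing notes name the aligner STAR 2.6.1b, HTSeq, R 3.5.3, FastQC 0.11.8 and the mm10 build. The annotation and the rule for reads matching more than 1 gene are not stated there. The symbols use human spelling, and 16245 of 33514 rows matched a mouse symbol when case was ignored, and members were matched in that way to GENCODE M21. The 8 libraries' own files were identical to the series table. Groups and replicate numbers came from the sample titles, and nothing says that repeats were separate animals or cultures, so p-values cover only the spread among the libraries, which may be technical.

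All 8 libraries were fitted with edgeR 4.0.16 (robust quasi-likelihood test, two-sided, limma 3.58.1, R 4.3.3) with group as the only term, after TMM scaling and filterByExpr (minimum count 10, minimum total 15). The 3020 genes kept held 98.6% of the counts. P-values were adjusted by the Benjamini-Hochberg method over all 3020, with a threshold of 0.05, and adjusted p-values in the text are from this test unless another tool is named. The biological coefficient of variation was 6.10%. Alternatives were DESeq2 1.42.0, limma-voom, other scalings, no filter, length and GC trends removed, a replicate block, leaving out each library, and, chosen after seeing the data, leaving out siHoxa5 libraries 2 and 4. Coding sequences were read from GRCm38 and aligned with MAFFT 7.526. Identity counts aligned bases without gaps. Exact intervals on counts cover counting error only.

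The members and gene lists were chosen with earlier results of these data known. Genes named are the 7 members, HOXA5, up to 4 tested genes with the smallest p in each list, and the 2 genes most correlated with each member; some genes that this rule selects are not reported here. HDAC5, FOXO3 and the marker and heart muscle genes were named after their values were seen.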

Additional observations from a re-analysis of the deposited data

Results flagged for a closer look

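Single libraries far from the other 3 of their group were looked for in 102 groups of 4, with Dixon's test at the 95% level, and 7 stood out. Chance marks about 1 in 20 groups. Of the 14-3-3 genes, YWHAZ stood out in siHoxa5 library 4, with 2539 CPM beside 2292 to 2317 CPM in the other siHoxa5 libraries, and with 29.3% of the family's counts beside 26.6% to 27.0%. TRIO, a gene that tracked YWHAG, had 191 CPM in siHoxa5 library 4 beside 219 to 222. Among the partners and regulators, PPP1CB had 1056 CPM in siN library 3 beside 972 to 983 in the others. FOXO4 had 33.8 CPM in siN library 1 beside 57.1 to 61.4. TBC1D1 had 14.7 CPM in siHoxa5 library 1 beside 10.9 to 11.4, and NEDD4L had 14.6 CPM in siHoxa5 library 2 beside 35.9 to 38.2.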

How the results depend on the processing

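Over 16 alternatives, the log2 fold changes of YWHAE (0.02 to 0.09), YWHAG (-0.19 to -0.06), YWHAZ (-0.11 to -0.06) and SFN (-0.76 to -0.53) kept their direction and none passed the threshold; DESeq2 gave no adjusted p for SFN. YWHAH ranged from -0.21 to -0.02 and passed it under 2: without siHoxa5 replicate 1, and with a replicate block (-0.15, adjusted p = 0.0485), where 1 member was called. YWHAQ ranged from -0.0029 to 0.15, kept its direction in 15 of 16 and did not pass the threshold in any. Leaving out 1 library at a time gave 0 to 1 members called. Without siHoxa5 replicates 2 and 4 the direction turned for YWHAQ (-0.0029), BECN1 (0.0135), PPP2R2A (0.0322), SCUBE3 (-0.0695), FBXW2 (-0.0118), FOXO3 (-0.137) and PPIL4 (0.123, and 0.039 with limma-voom). Leaving out 1 library at a time, the direction also varied for PRKCE (-0.0428 without siHoxa5 replicate 3, up to 0.318), PPIL4 (-0.161 to 0.245) and HDAC5 (-0.024 to 0.0705). The cause was not tested. Whether the replicate numbers pair the libraries could not be settled, since all correlations were near 0. Same-numbered libraries' deviations correlated at 0.0662, -0.00695, -0.0201 and 0.0428, beside -0.0496 to 0.0433 for differently numbered ones. Of 8 libraries, 4 correlated best with their own number. With the replicate block 250 genes were called.

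Genes called numbered 215, against 120 with DESeq2 (63 higher, 57 lower), 143 without siHoxa5 replicates 2 and 4 (68 higher), and 145 to 260 with 1 library left out (73 to 130 higher, 70 to 130 lower). Partner and regulator genes called numbered 5, against 7 with upper-quartile scaling, 7 with the replicate block, 4 with no filter, 3 with DESeq2, 3 without siHoxa5 replicates 2 and 4, and 3 to 6 with 1 library left out. KCNH2 and PRKAA2 were called in all 16, HDAC9 in 15 (DESeq2 gave no adjusted p), SLC8A1 in 12 and RPS6KB1 in 7. SLC8A1 was lost with length and GC trends removed (0.20, adjusted p = 0.232), without siN replicate 2 (adjusted p = 0.078), without siHoxa5 replicate 2 (adjusted p = 0.102) and without siHoxa5 replicates 2 and 4. PPP1CB gained a call, lower in siHoxa5, in 4: upper-quartile scaling, length and GC trends removed, the replicate block (adjusted p = 0.0474) and without siHoxa5 replicate 4. FN1 and RPL4 were called in 7 of 16 and TIMP3 in 9. Length and GC values were at hand for 2898 of 3020 genes (96%). Adding pseudogene rows to their parents was not run, since there were 0 such rows. YWHAB and HOXA5, at 0 to 4 counts a library, were too shallow to test.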
